A study of Mus musculus with 6 samples.

Results

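RNA polymerase I (Pol I) transcription and ribosome assembly were examined in 37 genes, taken by symbol from a table of raw read counts for 27179 genes. All 37 were present, and all 37 passed the filter on low counts that left 12800 genes for testing. They comprised 6 genes of Pol I and its initiation factors, 9 genes of small nucleolar ribonucleoproteins (snoRNPs), 3 genes of abundant nucleolar proteins, 9 genes of 40S subunit assembly and 10 genes of 60S subunit assembly. The cells were C2C12, a mouse muscle precursor line whose cells divide as single myoblasts in high serum and, once serum is lowered, leave the cell cycle and fuse into myotubes with many nuclei. The 3 myotube libraries came from C2C12 cells kept for 3 days at 100% confluence, followed by 5 days of 2% horse serum with insulin, transferrin, selenium and ethanolamine. The 3 myoblast libraries came from subconfluent C2C12 cells in 10% fetal bovine serum. Both media were high-glucose DMEM with 4 mM glutamine. Serum, the added supplement, density and differentiation thus differed together, and their effects cannot be told apart.

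Ribosome production begins in the nucleolus, where Pol I transcribes the repeated ribosomal DNA into one long precursor. That precursor is modified by snoRNPs, cut, folded and joined to ribosomal proteins by assembly factors that leave as the subunits mature. The process takes up much of the biosynthetic effort of a dividing cell, and it is also set by growth signals in muscle, where new ribosomes accompany fibre growth.

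Library totals ranged from 7370169 to 8339589 counts in myotubes and from 10076945 to 11723881 in myoblasts. Levels below are counts scaled to one common library total (CPM) after correction by the trimmed mean of M-values (TMM), with the mean and standard deviation (SD) over 3 libraries where given. The least abundant value of any of the 37 genes rested on 72 reads. All 9 myotube markers examined rose, and their summed level ran from 14703 to 15299 CPM in myotubes and from 73.1 to 91.9 CPM in myoblasts. All 13 proliferation markers fell, with sums of 282 to 299 CPM in myotubes and 2950 to 2972 CPM in myoblasts; their part in the results below was not tested. Summed adipocyte markers were 7.96 to 9.34 CPM in myotubes and 16.4 to 18.7 CPM in myoblasts, nearly all from Cebpa. Osteoblast markers stayed under 1 CPM in every library. Satellite or reserve cell markers (Pax7, Cd34 and Myf5) summed to at most 234 CPM in myotubes and at most 169.6 CPM in myoblasts, and every myotube sum lay above every myoblast sum. Of the 3, Cd34 rose beyond 2-fold, with 101, 88.5 and 84.3 CPM in myotubes, against 37.8, 44.1 and 41.1 CPM in myoblasts. Myf5 fell by 0.13 on the log2 scale, a call that was lost with DESeq2 size factors in place of TMM. Pax7 did not pass. The part of these 3 markers in the results was not tested. In bulk RNA, fewer cells of a type and less RNA per cell cannot be told apart. The labels describe a harvest in triplicate without naming separate cultures. The spread behind every p-value is therefore that among these 3 libraries a group, and it may be technical.

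Most of the 37 genes were modestly lower in myotubes. In edgeR's quasi-likelihood fit, with p-values adjusted over all 12800 genes (Benjamini-Hochberg), 23 fell, 6 rose and 8 did not pass an adjusted p of 0.05. Among all genes tested 39.2% fell and 40.2% rose, whereas 62.2% of the 37 fell and 16.2% rose. The median log2 change was −0.33, or 79.8% of the myoblast level, beside 0.02 over all genes tested. Scaling by total counts, which shifts the median of all genes by −0.15, gave 28 lower and 4 higher among the 37, and 5935 lower (46.4%) and 4269 higher among all genes. The share called in either direction, 78.4%, was close to the 79.5% called over all genes. Libraries of the 2 groups did not overlap for the 23 genes that fell or for the 6 that rose; over all genes tested, 39.9% lay wholly lower and 40.6% wholly higher in myotubes. Log2 changes ran from −1.12 for Fbl to 1.08 for Rrp12. A test against a 2-fold change (glmTreat in edgeR) called 0 of the 37 at an adjusted p of 0.05. At that adjusted threshold 21.6% of all genes were called, 9.20% lower and 12.4% higher. At an unadjusted p under 0.05, for which no share over all genes is given here, 2 of the 37 passed. The corresponding tests in DESeq2 and limma-voom also called 0 of the 37 at an adjusted p of 0.05.

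**Figure D1:**
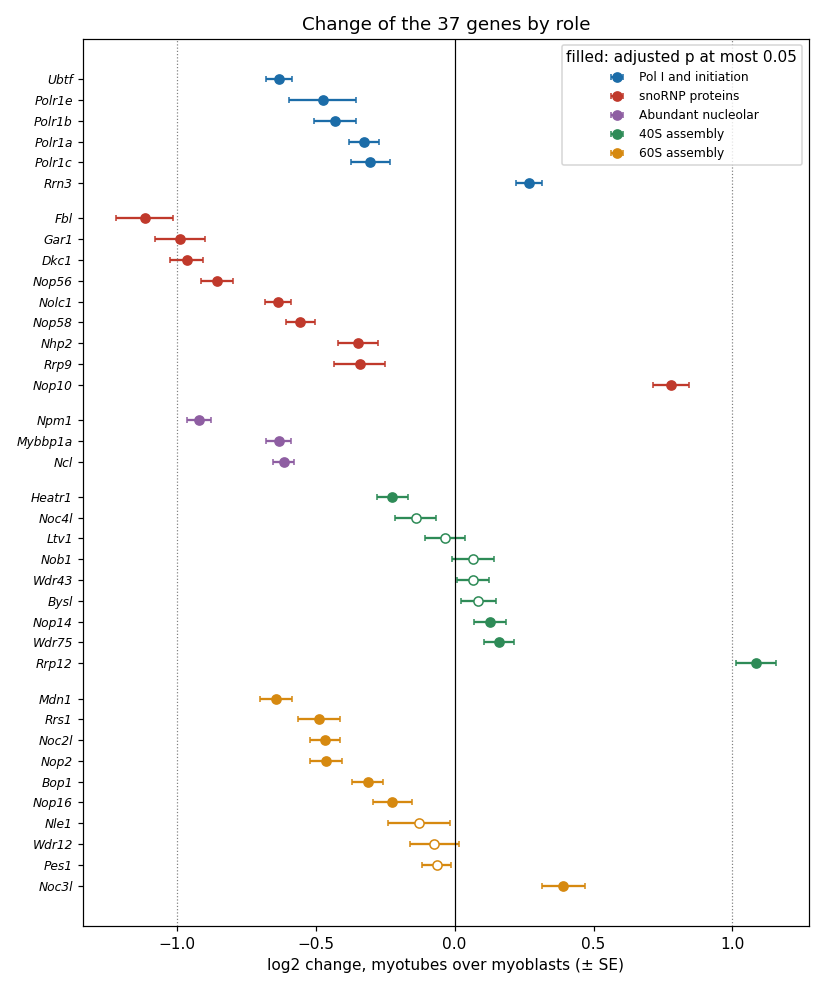
Log2 change of myotubes over myoblasts (x axis) for the 37 genes, ordered within each role; bars show 1 SE, filled points passed an adjusted p of 0.05, and dotted lines mark a 2-fold change. Points run from −1.12 for Fbl to 1.08 for Rrp12, with snoRNP genes mostly to the left and 40S assembly genes around 0, on which side depending on the scaling.

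As a share of all reads, the 37 genes together took 0.270%, 0.279% and 0.296% in myotube libraries 1, 2 and 3, against 0.414%, 0.411% and 0.410% in myoblast libraries 1, 2 and 3. On the TMM scale their summed level was 2838, 2946 and 3115 CPM in myotubes and 3941, 3922 and 3894 CPM in myoblasts. Without Ncl and Npm1, which have high counts, the sums were 2128 to 2357 CPM in myotubes and 2697 to 2773 CPM in myoblasts. The myotube libraries were less alike than the myoblast libraries. The median coefficient of variation of the 37 genes was 7.36% in myotubes and 3.45% in myoblasts. Counting noise enters this measure and is larger at the lower counts of the myotube libraries. Chi-square per degree of freedom between 2 libraries, which allows for counting noise, was taken over the whole table. It was 1.78 to 3.22 in myotubes and 1.35 to 1.77 in myoblasts. Myotube library 3 held the highest myotube value for 26 of the 37 genes and myotube library 1 the lowest for 25. The median log2 change was −0.27 without myotube library 1 and −0.37 without myotube library 3.

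The 300 bases around 1 annotated start of each gene (250 before, 50 after) were searched on both strands. This was done because genes of this process are textbook targets of MYC, which binds the E-box CACGTG. RefSeq windows on GRCm38.p6 were matched for 32 of the 37 genes, taking the first listed where a gene had several. For Ubtf, Noc2l and Noc3l the whole window lies downstream of the gene's outermost start. Bases just after the start were found in an annotated transcript of the gene for 26 of the 32. Nop2 and Mybbp1a were not among these 26. CACGTG stood in 8 of these 32, or 25%, beside 10.5% of windows of genes tested and 7.24% of all windows. Of the 19 matched genes that fell 3 held it (Nop2, Mybbp1a and Mdn1), and of the 13 that did not fall 5 held it (Rrn3, Wdr43, Ltv1, Pes1 and Nle1). The ETS-type motif CCGGAAGT was found in 8 of the 32 windows, beside 8.53% of windows of genes tested. The YY1-type motif AANATGGC was found in 1, beside 8.96%, and the NRF1-type motif, GCGCA joined to TGCGC, in 0, beside 2.14%. No E-box overlapped an ETS-type motif in the stretches printed below. A match is a run of letters and not a shown binding site. Myc itself was slightly lower, with 44.3 ± 2.40 CPM in myotubes and 51.6 ± 2.58 CPM in myoblasts (SD, n = 3 each; log2 change −0.23, adjusted p = 0.00326). Its partner Max fell by 0.37 on the log2 scale, and Mycn had almost no reads in either group. The 100 bases before the start are shown for Rrn3 and Nop2, which carry an E-box and moved in opposite directions, and for the 4 proteins of the H/ACA snoRNP, of which Nop10 moved against the others. Each runs 5′ to 3′ on the gene's strand, with whole E-box or ETS-type motifs in capitals. In Rrn3 an ETS-type run crosses the start and is not shown whole, and a second E-box lies further upstream.
Rrn3 (chr16:13780599-13780698, plus strand): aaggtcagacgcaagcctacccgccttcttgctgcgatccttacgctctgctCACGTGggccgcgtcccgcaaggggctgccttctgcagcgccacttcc
Nop2 (chr6:125131783-125131882, plus strand): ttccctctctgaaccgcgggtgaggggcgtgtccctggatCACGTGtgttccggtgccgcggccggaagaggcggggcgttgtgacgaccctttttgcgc
Nhp2 (chr11:51619673-51619772, plus strand): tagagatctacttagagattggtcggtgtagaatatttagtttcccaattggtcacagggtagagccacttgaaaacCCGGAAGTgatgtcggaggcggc
Gar1 (chr3:129831397-129831496, minus strand): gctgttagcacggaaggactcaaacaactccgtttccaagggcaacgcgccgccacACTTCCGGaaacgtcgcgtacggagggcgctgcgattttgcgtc
Dkc1 (chrX:75095754-75095853, plus strand): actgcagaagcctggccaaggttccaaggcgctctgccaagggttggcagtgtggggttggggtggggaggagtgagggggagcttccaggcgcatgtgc
Nop10 (chr2:112261826-112261925, plus strand): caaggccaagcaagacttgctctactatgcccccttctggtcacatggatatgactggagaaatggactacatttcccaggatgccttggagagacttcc

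Pol I and its initiation factors split between 1 gene that rose and 5 that fell, where 39.2% of all genes tested fell. Rrn3 encodes TIF-IA, the growth-regulated factor that makes Pol I competent to start transcription. It had 122, 123 and 121 CPM in myotube libraries 1, 2 and 3, against 104, 99.0 and 100.2 CPM in myoblast libraries 1, 2 and 3. Every myotube library lay above every myoblast library (log2 change 0.27, SE 0.05, adjusted p = 1.15e-05). Ubtf, the upstream binding factor that coats active ribosomal DNA and recruits the initiation complex, had 96.3, 103 and 105 CPM in myotubes, against 159, 156 and 156 CPM in myoblasts. It was lower in all myotube libraries and had the largest fall of the 6 genes (log2 change −0.63, SE 0.05, adjusted p = 3.56e-12). The largest subunit, Polr1a, had 96.0, 113 and 114 CPM in myotubes, against 136, 139 and 131 CPM in myoblasts, a fall to 79.8% of the myoblast level. Myotube library 1 was the lowest, and the groups did not overlap. The second-largest subunit, Polr1b, fell to 74.2%, Polr1c, which Pol I shares with Pol III, to 81.0%, and the peripheral subunit Polr1e to 71.9% (adjusted p from 6.94e-06 to 0.000939 for the 4 subunits). Polr1b had 29.8, 25.7 and 28.9 CPM in myotubes, against 36.2, 39.1 and 38.4 CPM in myoblasts. Polr1e was the scarcest of the 6 by CPM, with 9.75 to 14.0 CPM in myotubes and 17.0 to 17.9 CPM in myoblasts. Within each library, the per-length level of Rrn3 (CPM per kilobase of its principal transcript) was 2.73 to 3.27 times that of Polr1a in myotubes and 1.84 to 1.98 times in myoblasts. The ratios of Polr1b, Polr1c and Polr1e to Polr1a overlapped between the groups. Ubtf over Polr1a was 1.79 to 1.97 in myotubes and 2.21 to 2.34 in myoblasts, without overlap.

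All but 1 of the 9 snoRNP genes fell, beside 39.2% of all genes tested, and their median log2 change was −0.63. Box C/D snoRNPs guide 2′-O-methylation of ribosomal RNA, and Fbl (fibrillarin) is their methyltransferase. Fbl had 10.7, 11.4 and 11.4 CPM in myotubes, against 24.7, 23.3 and 24.7 CPM in myoblasts. The myotube level was 46.2% of the myoblast level (log2 change −1.12, SE 0.10, adjusted p = 2.53e-10), and 10.6% of all genes tested had a lower log2 change. For Fbl, 73.0% of the 50-base windows of its transcript have an exact copy in another annotated gene, so part of its reads may be lost or shared and its level is uncertain. Its core partner Nop56 had 58.4, 60.8 and 68.3 CPM in myotubes, against 112, 118 and 109.7 CPM in myoblasts, with copies for 37.6% of its windows (log2 change −0.85, SE 0.06, adjusted p = 7.14e-13). Nop58, the other core scaffold, had no such copies. Its levels were 97.3, 110.4 and 111 CPM in myotubes, against 164, 154 and 151 CPM in myoblasts (log2 change −0.55, SE 0.05, adjusted p = 4.37e-10). Fbl, Nop56 and Nop58 all fell, and the per-length ratio of Nop58 to Nop56 was 1.78 to 1.99 in myotubes and 1.43 to 1.61 in myoblasts. Rrp9, the U3-specific protein that works in early pre-rRNA cleavage, fell to 78.9% of its myoblast level (adjusted p = 0.00149). Nolc1, a nucleolar chaperone of snoRNPs, had nearly equal values among replicates, 85.9, 86.5 and 86.9 CPM in myotubes, against 135, 133 and 135 CPM in myoblasts (log2 change −0.63, adjusted p = 3.72e-12).

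Box H/ACA snoRNPs convert uridine to pseudouridine and are built from 4 proteins, of which 3 fell and 1 rose. Dkc1 (dyskerin), the pseudouridine synthase, lies on chromosome X at 75095854 to 75109776 (GRCm38). It had 39.4, 39.1 and 39.4 CPM in myotubes, against 79.4, 74.7 and 76.1 CPM in myoblasts (log2 change −0.96, SE 0.06, adjusted p = 1.26e-13). Gar1 had 16.6, 16.8 and 18.8 CPM in myotubes, against 36.4, 35.3 and 31.8 CPM in myoblasts (log2 change −0.99, SE 0.09, adjusted p = 2.45e-10). These 2 genes stood at 51.2% and 50.5% of their myoblast levels, and their ratio in a library overlapped between the groups. Nhp2 fell less, with 39.5, 47.1 and 41.2 CPM in myotubes, against 58.0, 53.5 and 51.2 CPM in myoblasts (log2 change −0.35, SE 0.07, adjusted p = 9.27e-05). Nop10, the smallest protein of the particle and a direct partner of dyskerin, lies on chromosome 2 at 112261926 to 112262898. Its values were 53.2, 51.7 and 51.8 CPM in myotubes, against 30.9, 29.7 and 30.8 CPM in myoblasts. It was 1.72-fold higher in myotubes, with no overlap (log2 change 0.78, SE 0.07, adjusted p = 5.5e-11). Per length, Nop10 had 3.42, 3.34 and 3.32 times the level of Dkc1 in myotube libraries, against 0.984 to 1.02 times in myoblast libraries. By per-length level Nop10 ranked 5 of the 37 in myotubes and 16 in myoblasts, whereas Dkc1 ranked 26 in myotubes and 17 in myoblasts. The ratio within a library does not depend on how libraries are scaled. Its size and these ranks rest on the annotated transcript length, 1109 bases for Nop10 and 2804 for Dkc1. For Nop10 that length is more than the span of the locus given above. The fold difference of the ratio between the groups does not depend on length. Copies in another gene cover 2.74% of the windows of Nop10 and 0.871% of those of Dkc1.

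**Figure D2:**
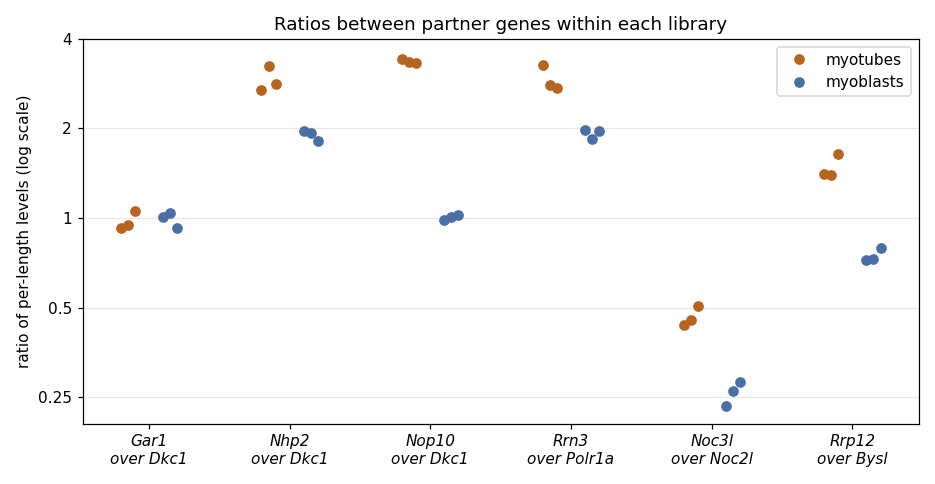
Ratio of per-length levels of paired genes (y axis, log scale) in each of the 3 myotube and 3 myoblast libraries; each point is 1 library. Gar1 over Dkc1 overlaps between groups near 1, whereas Nop10 over Dkc1 lies at 3.32 to 3.42 in myotubes and 0.984 to 1.02 in myoblasts. The size of each ratio rests on annotated transcript lengths.

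All 3 abundant nucleolar proteins fell, beside 39.2% of all genes tested. Npm1 (nucleophosmin), which forms the outer layer of the nucleolus and takes part in 60S maturation, had 151, 143 and 147 CPM in myotubes, against 287, 267 and 279.7 CPM in myoblasts. It stood at 52.8% of the myoblast level (log2 change −0.92, SE 0.04, adjusted p = 3.27e-16), with copies for 40.9% of its windows, so its level is uncertain. Ncl (nucleolin), an RNA-binding protein of early pre-rRNA processing, had 558, 579 and 611 CPM in myotubes, against 881, 882 and 917 CPM in myoblasts (log2 change −0.62, SE 0.04, adjusted p = 2.08e-13). Copies cover 0.908% of the windows of Ncl. Mybbp1a, a nucleolar protein linked to Pol I and to pre-rRNA processing, had 188, 202 and 214 CPM in myotubes, against 312, 319 and 306 CPM in myoblasts (log2 change −0.63, SE 0.04, adjusted p = 1.35e-12). None of the 3 overlapped between groups. By per-length level Npm1 ranked first and Ncl second among the 37 genes in both groups, at 89.9 ± 2.73 and 71.0 ± 3.24 CPM per kilobase in myotubes and 170.2 ± 6.05 and 109 ± 2.52 CPM per kilobase in myoblasts (SD, n = 3 each). Nop58 was next in both, at 62.1 ± 4.57 CPM per kilobase in myotubes and 91.3 ± 4.10 in myoblasts, and within each group the levels of these 3 did not overlap. These levels, and the order of Npm1 and Ncl, rest on the annotated length of the principal transcript. That length is 8202 bases for Ncl and 1633 for Npm1. By CPM, Ncl lay above Npm1 in every library.

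**Figure D3:**
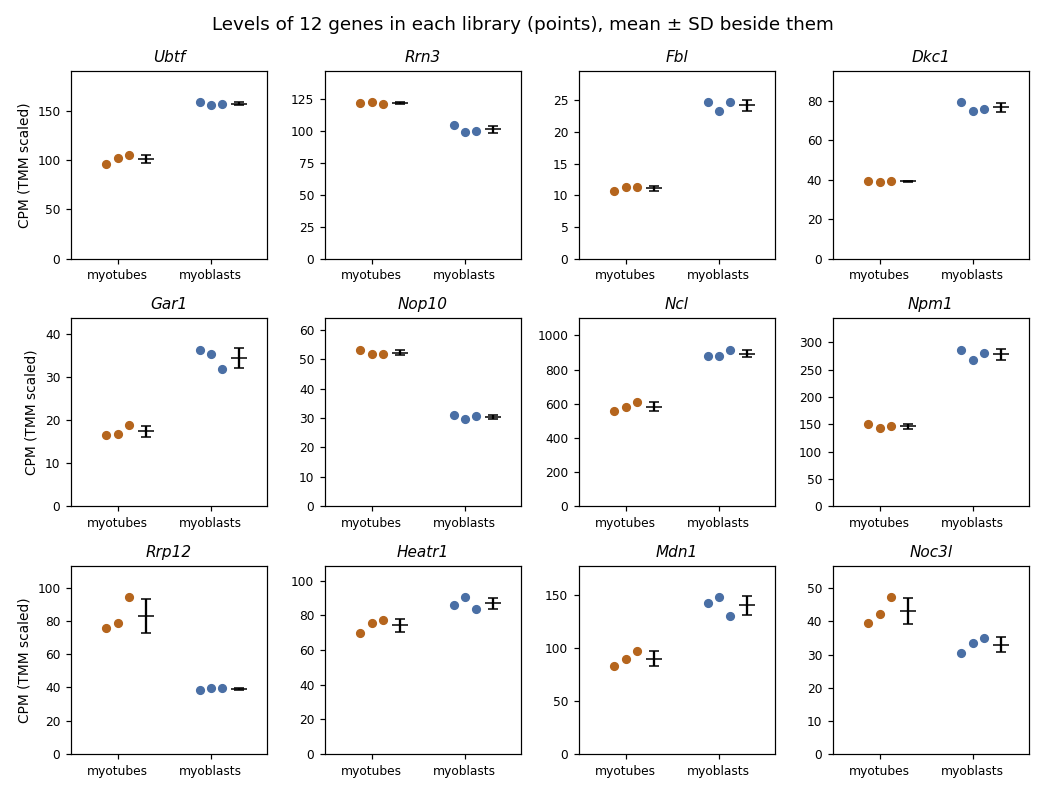
TMM-scaled CPM (y axis, from 0) of 12 of the genes in each myotube and myoblast library (points), with mean ± SD beside them (n = 3). Rrn3, Nop10, Rrp12 and Noc3l lie higher in every myotube library, and the other 8 lie lower in every myotube library.

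Genes of 40S assembly were mostly near their myoblast levels. Of 9, 1 fell, 3 rose and 5 did not pass, with a median log2 change of 0.07. Of all genes tested 39.2% fell and 40.2% rose. Scaled by total counts, 3 of the 9 fell and 1 rose, and their median was −0.08. Rrp12, a HEAT-repeat protein known from yeast to act in late 40S maturation and export, had the largest increase of all 37 genes. It lies on chromosome 19 at 41859483 to 41896153, and had 75.5, 78.6 and 94.4 CPM in myotubes, against 38.6, 39.3 and 39.6 CPM in myoblasts (log2 change 1.08, SE 0.07, adjusted p = 3.68e-13). Myotube library 3 was the highest, and without library 1 of the myotubes Rrp12 passed the test against a 2-fold change. The other 2 that rose did so slightly. Wdr75, a subunit of the tUTP complex that joins the nascent precursor first, had 77.3, 82.6 and 80.8 CPM in myotubes, against 71.7, 72.8 and 71.1 CPM in myoblasts (log2 change 0.16, SE 0.05, adjusted p = 0.00854). Nop14, a factor of the small-subunit processome, had 61.8, 61.9 and 65.9 CPM in myotubes, against 57.5, 59.0 and 57.3 CPM in myoblasts (log2 change 0.13, SE 0.06, adjusted p = 0.0484). That call was lost in 9 of 13 alternative settings. The calls of both genes were lost with scaling by total counts and with no filter on low counts. By per-length level Rrp12 ranked 23 of the 37 in myotubes and 33 in myoblasts. Within a library it had 1.39 to 1.64 times the level of Bysl in myotubes and 0.720 to 0.790 times in myoblasts.

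Heatr1, the other tUTP-associated scaffold with a call, had 70.1, 75.8 and 77.2 CPM in myotubes, against 86.2, 90.6 and 83.9 CPM in myoblasts (log2 change −0.22, SE 0.06, adjusted p = 0.00069). Wdr43, a further tUTP protein, had 89.6, 98.7 and 107 CPM in myotubes, against 95.6, 90.6 and 96.5 CPM in myoblasts, and the groups overlapped; without myotube library 1 it passed as higher (adjusted p = 0.0373). The tUTP genes listed here thus had one fall, one small rise and one that did not pass. Noc4l, the partner of Nop14, had 44.7, 41.4 and 48.5 CPM in myotubes, against 47.3, 54.1 and 46.7 CPM in myoblasts (log2 change −0.14, adjusted p = 0.0827). It passed as lower in 4 of 13 alternative settings: without myotube library 3 (adjusted p = 0.0187), without myoblast library 3 (adjusted p = 0.0452), with every gene that had a read kept (adjusted p = 0.0120) and with scaling by total counts (adjusted p = 0.000945). Its ratio to Nop14 was 0.872 to 0.958 in myotubes and 1.06 to 1.19 in myoblasts, without overlap. Bysl, Ltv1 and Nob1 did not pass either. Bysl, the homologue of yeast Enp1, had 47.5, 50.2 and 51.0 CPM in myotubes, against 47.6, 48.1 and 44.5 CPM in myoblasts. Ltv1, a factor released before final maturation, had 45.7 to 56.0 CPM in myotubes and 49.3 to 52.8 CPM in myoblasts. Nob1, the endonuclease that makes the 3′ end of 18S rRNA, had 41.3 to 46.6 CPM in myotubes and 37.4 to 46.0 CPM in myoblasts. For these 5 genes the adjusted p ran from 0.0827 to 0.654. Bysl shares 9.37% of its exon bases with an antisense gene, Ccnd3.

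Genes of 60S assembly were in between, with 6 of 10 falling, 1 rising and 3 not passing, and a median log2 change of −0.27. Over all genes tested 79.5% were called, 39.2% lower and 40.2% higher. Scaled by total counts, 9 of the 10 fell and 1 rose. Mdn1 (midasin), the giant ATPase that pulls assembly factors off pre-60S particles, had 82.6, 89.7 and 97.0 CPM in myotubes, against 142, 148 and 130.3 CPM in myoblasts. It had the largest fall of the 10 (log2 change −0.64, SE 0.06, adjusted p = 1.73e-10). Nle1, whose yeast homologue is removed by midasin, had 13.4, 19.2 and 17.7 CPM in myotubes, against 18.1, 18.5 and 18.7 CPM in myoblasts, with an overlap between groups (log2 change −0.13, adjusted p = 0.289 with SE 0.11). The PeBoW complex of Pes1, Bop1 and Wdr12 processes the precursor of 28S and 5.8S rRNA, and its genes did not share a call. Bop1 had 108, 121 and 134 CPM in myotubes, against 151, 152 and 149 CPM in myoblasts (log2 change −0.31, SE 0.06, adjusted p = 1.56e-05). Pes1 had 84.9, 82.6 and 91.2 CPM in myotubes, against 90.0, 89.8 and 90.9 CPM in myoblasts, and Wdr12 25.5, 31.0 and 30.3 CPM, against 31.6, 32.0 and 27.7 CPM; neither passed (adjusted p = 0.263 and 0.448). The ratio of Bop1 to Pes1 was 1.48 to 1.72 in myotubes and 1.91 to 1.98 in myoblasts, whereas that of Wdr12 to Pes1 overlapped. Pes1 has copies in other genes for 23.6% of its windows.

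Noc2l and Noc3l, whose yeast homologues bind each other in pre-60S particles, moved in opposite directions. Noc3l had 39.7, 42.2 and 47.4 CPM in myotubes, against 30.5, 33.4 and 35.0 CPM in myoblasts (log2 change 0.39, SE 0.08, adjusted p = 5.8e-05). Noc2l, also known as an inhibitor of histone acetyltransferases, had 63.4, 65.4 and 65.4 CPM in myotubes, against 91.6, 89.5 and 87.2 CPM in myoblasts (log2 change −0.47, SE 0.05, adjusted p = 1.48e-08). Their per-length ratio, Noc3l over Noc2l, was 0.438 to 0.507 in myotubes and 0.233 to 0.281 in myoblasts. Noc2l shares 21.5% of its exon bases with the antisense gene Samd11, so its level is uncertain where strand was not used. Nop2, an rRNA cytosine methyltransferase whose E-box is shown above, had 69.0 ± 5.37 CPM in myotubes and 95.4 ± 2.86 CPM in myoblasts (SD, n = 3 each), a fall to 72.5%. Rrs1, which helps bring the 5S ribonucleoprotein into the pre-60S particle, had 33.7 ± 2.07 CPM in myotubes and 47.3 ± 3.99 CPM in myoblasts (SD, n = 3 each), a fall to 71.4%. Nop16 fell to 85.6% (adjusted p = 0.00556), and lost its call without myotube library 2 (adjusted p = 0.0556).

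Other genes of the same process were read from lists of factors not among the 37. Calls in these lists stand beside 39.2% lower and 40.2% higher over all genes tested. Of 10 further Pol I factors 4 fell and 2 rose, with a median log2 change of −0.09. Tcof1 (treacle), which links Pol I to pre-rRNA modification, had 65.7 ± 2.90 CPM in myotubes and 117 ± 3.01 CPM in myoblasts (log2 change −0.84, adjusted p = 1.48e-13), and Taf1c of the promoter selectivity factor fell by 0.60. Polr1d, shared by Pol I and Pol III, rose by 0.47. Among 10 further snoRNP genes tested (assembly factors and Snu13, another core protein of box C/D particles) 7 fell and the other 3 did not pass, with a median of −0.36. Snu13, named after its values were seen, fell by 0.20 on the log2 scale (adjusted p = 0.00662). Both ATPases of the R2TP chaperone fell: Ruvbl2 had 38.7 ± 4.39 CPM in myotubes and 77.3 ± 4.65 CPM in myoblasts, and Ruvbl1 had 10.8 CPM in myotubes and 21.2 CPM in myoblasts (adjusted p = 2.12e-12 and 3.79e-08). Further 40S factors were called both ways, 19 lower and 15 higher of 50, with a median of 0.01; scaled by total counts the median was −0.13, with 23 lower and 12 higher. Imp4, a partner of U3, fell by 1.31 and the processome scaffold Utp20 by 1.16, while the kinase gene Riok3 rose by 1.52 on the log2 scale. Further 60S factors were also divided, 19 lower and 16 higher of 51, with a median of −0.05; scaled by total counts 29 were lower and 11 higher. The helicase gene Ddx55 fell by 0.96 and Urb2 by 0.83, and Nsa2 rose by 0.67. In the lists of exosome and RNase MRP genes 10 of 22 fell and 5 rose, with a median of −0.03. Pop1 fell by 1.91 and the exosome nuclease Dis3 by 1.39, and Rpp38 rose by 1.10. Of 6 factors known to silence ribosomal DNA 5 fell. Among them Suv39h1, a histone H3 lysine methyltransferase, had 14.6 ± 1.57 CPM in myotubes and 73.8 ± 1.03 CPM in myoblasts, and Sirt1 fell by 0.98.

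The other nuclear polymerases were set beside Pol I. Here too, 39.2% of all genes tested fell and 40.2% rose. Of 7 Pol II subunits 2 fell and 3 rose (median −0.11), or 4 and 1 when scaled by total counts, the largest fall being that of the catalytic subunit Polr2a, with 208 ± 4.55 CPM in myotubes and 612 ± 32.7 CPM in myoblasts (log2 change −1.56, adjusted p = 4.96e-21). Polr2g rose by 0.58. Of 11 Pol III genes 6 fell and 3 rose (median −0.17). The alternative subunits Polr3g and Polr3gl moved apart: Polr3g fell by 1.15 on the log2 scale, and Polr3gl had 35.0 ± 2.51 CPM in myotubes and 11.5 ± 1.12 CPM in myoblasts. Of the 5 subunits common to all 3 polymerases 4 rose, led by Polr2k and Polr2h with log2 changes of 0.56 and 0.38; scaled by total counts, 1 of the 5 rose. For the 80 cytosolic ribosomal protein genes, 19 fell, 17 rose and 44 did not pass (median 0.01); scaled by total counts 32 fell and 10 rose. Their summed level was 9864 to 10359 CPM in myotubes and 9585 to 9736 CPM in myoblasts. Many of them have near-identical pseudogenes, and their counts are uncertain for that reason. Differences between these lists and the 37 genes were not tested.

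**Figure D4:**
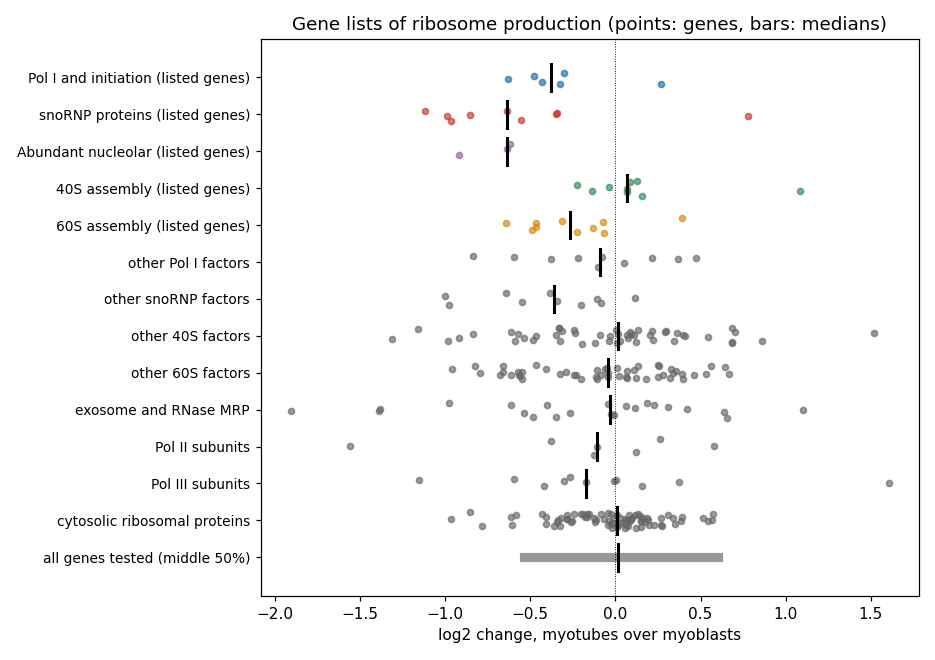
Log2 change of myotubes over myoblasts (x axis) for each tested gene (points) in the 5 roles and in 8 further lists, with black bars at the medians; the lowest row gives the middle 50% of all genes tested. The medians of the 3 uppermost roles run from −0.38 to −0.63, and those of the 40S and ribosomal protein lists lie near 0.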

How the data were processed

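One table of raw counts, as deposited by the authors, covers 6 libraries made with a stranded mRNA kit per the labels' protocols. The submitters' processing notes name fastp, STAR, featureCounts and mm10; tool versions, the strand setting and the treatment of multi-mapped reads are not given there. Groups come from sample titles. No replicate pair was identical (chi-square per degree of freedom 1.35 to 3.22).

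Counts were tested with edgeR 4.0.16 in R 4.3.3: filterByExpr (minimum count 10, minimum total 15), TMM scaling, robust quasi-likelihood F test, glmTreat at a log2 threshold of 1, and Benjamini-Hochberg adjustment over all genes tested. Each SE was obtained as the size of the log2 change over the root of its F value. The biological coefficient of variation was 3.56%. Alternatives used DESeq2 1.42.0 and limma 3.58.1. Of the 27179 genes, 1049 without a symbol were kept under their Entrez ID.

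Per-length levels divide CPM by the length of the GENCODE M21 principal transcript. The size of a per-length ratio and the ranks rest on that length, whereas the fold difference of a ratio between groups does not. Windows of 50 bases of that transcript were searched in transcripts of other genes. Gene coordinates come from RefSeq on GRCm38, the assembly that mm10 names. The members and lists were chosen with earlier results of these data known. Genes outside the 37 were named as the largest called changes in each list (2 in the direction most members took, 1 in the other, mean of at least 1 CPM), with Myc, Mycn and Max.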

Additional observations from a re-analysis of the deposited data

How the results depend on the processing

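Of the 29 genes with a call, 26 kept it and its direction under all 13 alternatives; the exceptions were Nop14, Wdr75 and Nop16 (largest adjusted p 0.752, 0.834 and 0.0556). The number called among the 37 ran from 27 to 30 with 1 library left out, and was 32 with scaling by total counts (28 lower, 4 higher; over all genes 5935 lower, or 46.4%, and 4269 higher). That scaling moved the median of all log2 changes by −0.15. It turned the log2 change of Nop14 to −0.020, Wdr43 to −0.079, Bysl to −0.061 and Nob1 to −0.081, and called 2 genes beyond 2-fold, Fbl and Dkc1, where leaving out 1 library gave 0 to 1. With 1 library left out, the log2 change ran from −0.14 to 0.015 for Ltv1, −0.14 to 0.0057 for Wdr12, −0.23 to 0.00084 for Nle1 and −0.0040 to 0.14 for Nob1, with adjusted p from 0.0695 upward. Scaled by total counts, Noc4l, Ltv1, Pes1, Wdr12 and Nle1 gained a call as lower; Noc4l did so with no filter too. The difference in the share of reads, −0.130 percentage points, was −0.0953 over TMM-scaled library sizes and −0.0765 without Ncl and Npm1. Leaving out 1 library gave −0.137 to −0.124 for that share and 9875 to 10153 genes called over the table, where all libraries gave 10170. Same-numbered libraries did not deviate together (correlations −0.0018 to 0.0105). Counting noise enters these deviations, and the labels do not say whether the numbers mark shared cultures. Whether the numbers pair libraries is thus not settled. With the replicate number as a block 10161 genes were called, and 28 of the 37 (23 lower, 5 higher). The cause of these shifts was not tested. The fewest reads behind any of the 37 values were 72, for Polr1e in myotube library 2; Fbl had 75 to 90 in myotubes.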

Other observations

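The table also holds a row for Rn45s, the 45S ribosomal RNA precursor made by Pol I, which was looked at after the other results were known. It had 701, 563 and 613 CPM in myotube libraries 1, 2 and 3, against 634, 707 and 892 CPM in myoblast libraries 1, 2 and 3. The groups overlapped, and Rn45s did not pass by edgeR (log2 change −0.25, SE 0.17, adjusted p = 0.233). The libraries were made with an mRNA kit, so these reads are what remained after selection and are no measure of how much precursor the cells held. Npm3, a relative of Npm1 also named after its values were seen, had 14.9 ± 0.975 CPM in myotubes and 22.4 ± 1.31 CPM in myoblasts (SD, n = 3 each; log2 change −0.59, adjusted p = 8.74e-06).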
